A study of Mus musculus with 4 samples.

Results

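The 10 genes of the Ifi200 family other than Ifi202b, Ifi205 and Ifi206 were followed across the immune cells of mouse skin wounds: Ifi203, Ifi204, Ifi207, Ifi208, Ifi209, Ifi211, Ifi213, Ifi214, Mndal and Aim2. They were taken by symbol from the 31053 genes of the count matrices, and all 10 had a row. The cells were live CD45+ leukocytes sorted from 3 mm full-thickness excisional wounds of 8-week-old male mice on the C57BL6/J background, profiled by droplet single-cell RNA sequencing of transcript 3' ends. The 4 groups held 1 library each: Angptl4+/+ wounds at 1 day postwounding (dpw), Angptl4+/+ wounds at 5 dpw, Angptl4-/- wounds at 1 dpw and Angptl4-/- wounds at 5 dpw. The labels name no further allele and no agent for any group. The Angptl4-/- mice lacked the gene in every cell and came from a separate supplier than the wild-type mice, so that the effect of the deletion and that of the source of the mice cannot be told apart. The number of mice behind each library was not given in the sources used here. With 1 library in each group no difference had a replicate check, no p-value was computed, and every interval below covers counting error only.

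The Ifi200 proteins, also called PYHIN proteins, pair in most members a pyrin domain, through which they bind other proteins, with a HIN domain, through which they bind double-stranded DNA. Aim2 binds DNA in the cytosol and, with the adaptor Pycard, activates Casp1 in an inflammasome. Ifi204 is a relative of human IFI16, which senses DNA and signals to interferon genes, and many genes of the family are themselves induced by interferon. The other members are less well described, and several have near-identical stretches of sequence.

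The family lies in 1 cluster on mouse chromosome 1, and in GRCm38 the 10 members extended from Aim2 (chr1:173350879-173466040, plus strand) to Ifi203 (chr1:173920407-173942672, minus strand). Promoter windows of 300 bases, 250 before and 50 after the gene start, were in the RefSeq table (GRCm38.p6) for 9 of the 10 members, Ifi204 being the exception, and numbered 11, since Ifi203 and Mndal had 2 each. The core of the interferon-stimulated response element (GAAANNGAAA, searched on both strands) was in 8 of these 11 windows, which belong to 7 of the 9 members, and in 3.44% of 32851 promoter windows of the same length. The other Ifi203 window and those of Ifi209 and Aim2 held none. The second interferon motif searched, TTCNNNGAA (the gamma-activated site, both strands), was in none of the 11, against 8.3% of all windows. The 30 bases around 1 match of each of the 7 members are shown. Below, Aim2 alone of the 10 was not called higher at 2-fold in the interferon comparison of macrophage-like cells. Capitals mark the 10 motif bases. In the last 2 sequences, those of Ifi209 and Aim2, capitals mark the aligned 10 bases of the stretch closest to the Ifi214 window, which is not a match to the motif.

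Ifi214: agtctctgagGAAATCGAAAgcgatgcact
Ifi213: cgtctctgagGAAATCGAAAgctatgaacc
Ifi208: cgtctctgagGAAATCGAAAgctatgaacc
Ifi207: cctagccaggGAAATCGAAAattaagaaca
Ifi211: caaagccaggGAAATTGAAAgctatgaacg
Ifi203: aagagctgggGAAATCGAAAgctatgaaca
Mndal: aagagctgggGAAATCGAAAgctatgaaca
Ifi209: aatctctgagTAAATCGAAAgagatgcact
Aim2: aaggtcttggGACTTTCACAaggaggaact

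The 7 matches shown began 35 to 79 bases before the gene start. Their 30-base windows lay at chr1:173536017-173536046 for Ifi214, chr1:173599326-173599355 for Ifi213 and chr1:173741831-173741860 for Ifi207. Those of Ifi211, Ifi203 and Mndal lay at chr1:173913064-173913093, chr1:173942508-173942537 and chr1:173880204-173880233, all on the minus strand like the first 3. The 30-base window of Ifi208 lay on the plus strand at chr1:173673597-173673626. The other Mndal promoter window held a match too, on the opposite strand, which is not shown. The Ifi209 stretch (chr1:173630770-173630799, plus strand) began 79 bases before the gene start and differed from the Ifi214 window at 3 of 30 bases, G2A, G11T and C22A, where the Ifi214 base stands first, then the position counted from 1 at the 5′ end, then the Ifi209 base. Of these 3 differences only G11T fell in the motif. The closest stretch of Aim2 (chr1:173420442-173420471, plus strand) differed at 14 of 30 bases. A match is a description of the letters and not evidence of binding.

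The count matrices held 20069 barcodes, of which 19827 passed the filters on genes and mitochondrial UMIs, 4738 to 5346 in each library, with library totals of 26981596 to 32962595 unique molecular identifiers (UMIs, counted transcripts). Any pair of libraries shared 5 to 15 barcodes. Angptl4 was listed at 0 in both Angptl4-/- libraries and at 1.43 and 2.64 CPM (UMIs in each 1000000 of the library) in the Angptl4+/+ libraries at 1 and 5 dpw. Clustering and markers gave 6 classes: neutrophil-like (2695 to 3886 cells in each library), monocyte-like (128 to 156), macrophage-like (590 to 1456), dendritic cell-like (114 to 402), NK cell/T cell-like (37 to 235) and B cell-like cells (2 to 27), the last too few to describe. UMIs were summed over the cells of a class in a library and expressed as CPM of that sum. Where values come in pairs, the Angptl4+/+ wound stands first and the Angptl4-/- wound after it. A gene with at least 20 UMIs in both sums together was called different where its ratio was at least 2-fold and the 95% interval of its log2 ratio left out 0. The share of all genes called in the same way is given beside each count of members in this main setting.

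The members other than Aim2 were higher in macrophage-like than in neutrophil-like cells. In macrophage-like over neutrophil-like cells, 9 of 10 members were called higher in all 4 libraries, against 44% of 9747 genes, the exception being Aim2. The median log2 ratio of the members was 6.22 and 3.89 in Angptl4+/+ wounds at 1 and 5 dpw, beside 1.64 and 1.03 over all genes tested, and 5.80 and 5.09 in Angptl4-/- wounds, beside 1.72 and 1.02.

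Ifi204 was found in both main classes. In macrophage-like cells its level was 847 and 834 CPM at 1 dpw and 451 and 527 at 5 dpw. In neutrophil-like cells it was 168 (95% interval 162 to 174), 153 (148 to 159), 216 (206 to 226) and 126 (120 to 133) CPM in the same order. The macrophage-like level was higher in each library, and the narrowest gap, a log2 ratio of 1.06, was that of Angptl4+/+ wounds at 5 dpw. At least 1 UMI of Ifi204 was found in 16.7 to 28.3% of neutrophil-like cells and in 68.1 to 81.7% of macrophage-like cells, and in cells thinned to 1000 UMIs in 8.50 to 14.1% and 30.1 to 44.5%.

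Aim2, the inflammasome sensor, crossed between classes with time. Its macrophage-like level stayed between 37.0 and 40.5 CPM in all 4 libraries. Its neutrophil-like level was 22.2 (20.1 to 24.4) and 24.8 (22.6 to 27.2) CPM at 1 dpw, and 83.1 (77.1 to 89.4) and 75.6 (70.8 to 80.6) at 5 dpw. It was thus below the macrophage-like level at 1 dpw and above it at 5 dpw in both genotypes, with log2 ratios of macrophage-like over neutrophil-like cells of 0.84 and 0.58 at 1 dpw and -1.16 and -0.90 at 5 dpw. The median of this ratio over all genes was 1.64 and 1.72 at 1 dpw and 1.03 and 1.02 at 5 dpw. Between the days the neutrophil-like level of all genes rose by a median log2 ratio of 0.77 and 0.80. The part of that shift in the crossing was not tested. The share of neutrophil-like cells with a UMI was 9.19 and 9.79% at 1 dpw and 20.4 and 20.6% at 5 dpw, and after thinning 2.80 and 2.94%, then 8.36 and 7.07%. Every neutrophil-like cluster had the higher Aim2 level at 5 dpw in both genotypes, from 5.93 to 65.7 CPM in cluster 1 of Angptl4+/+ wounds and from 74.5 to 126 in cluster 5, the cluster of highest Aim2 level in each library.

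The remaining members were lower in neutrophil-like cells, where free RNA from macrophages can contribute UMIs. A set of 6 macrophage genes that neutrophils should lack (C1qa, C1qb, C1qc, Mrc1, Ms4a7 and Apoe) stood there at 0.105 to 1.87% of their macrophage-like level, Apoe being the highest in each library at 0.783% and 0.515% at 1 dpw and 1.87% and 1.62% at 5 dpw. Csf1r stood apart from them at 6.33 to 10.2%. Ifi203, at 0.327 and 0.474%, then 1.74 and 1.33%, lay below Apoe and above the other 5 of these genes in every library. Ifi213, at 0.868 to 3.09%, and Mndal, at 0.721 to 3.50%, lay near Apoe but above it in each library. Ifi203 was also uneven within the class: at 1 dpw it was at 2.91 and 7.92 CPM in a cluster led by interferon genes and at 0.845 and 0.643 CPM in the other neutrophil-like clusters, and at 5 dpw at 20.03 and 14.3 against 1.44 and 2.24 CPM. The part of free RNA in these low levels was not tested. Ifi209 stood at 1.29 to 6.17% of the macrophage-like level, above Apoe in each library. Ifi211 stood at 1.39 to 4.54%, and was below Apoe only in Angptl4-/- wounds at 5 dpw, at 1.51% against 1.62%. Ifi207, at 3.13 and 3.31%, then 17.5 and 6.16%, and Ifi208, at 4.50 and 4.22%, then 29.5 and 14.3%, lay above all 6 macrophage genes in each library, as did Ifi204, at 18.4 to 47.9%, and Aim2, at 56.1 to 223%. Ifi214 had 1, 1, 3 and 4 UMIs in all neutrophil-like cells of a library.

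**Figure D1:**
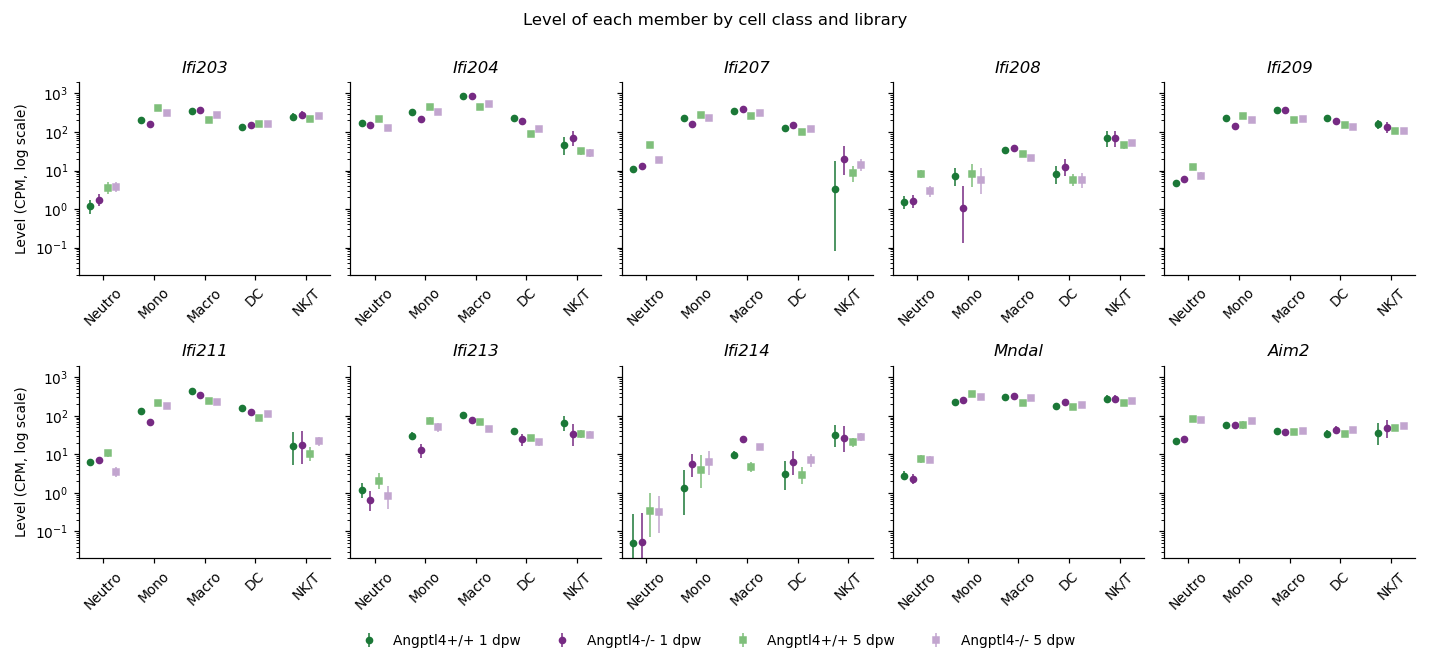
Level of each of the 10 members (CPM of the class in a library, log axis) in 5 cell classes, with 1 point for each library and bars for the exact 95% Poisson interval. All members but Aim2 are higher in macrophage-like than in neutrophil-like cells in every library, and Aim2 in neutrophil-like cells lies at 22.2 to 24.8 CPM at 1 dpw and at 75.6 to 83.1 CPM at 5 dpw.

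The other classes carried different sets of members. NK cell/T cell-like cells, with 40 and 37 cells at 1 dpw, had Ifi203 at 223 to 275 CPM and Mndal at 210 to 275, with Ifi208 at 44.7 to 67.8 and Ifi214 at 20.5 to 32.2. In the same cells Ifi207 stood at 3.22 to 20.4 CPM, Ifi211 at 10.5 to 22.0 and Ifi204 at 28.1 to 71.2, each below its level in macrophage-like, monocyte-like and dendritic cell-like cells of every library. Ifi208 in NK cell/T cell-like cells was above its level in every other class described, which was 20.5 to 37.5 CPM in macrophage-like and 1.53 to 8.11 in neutrophil-like cells. Monocyte-like cells had Ifi204 at 221 to 454 CPM, Ifi203 at 158 to 410 and Mndal at 233 to 370. Dendritic cell-like cells had Ifi209 at 135 to 228 CPM, Mndal at 165 to 230 and Ifi204 at 88.5 to 234. Aim2 was flat outside the neutrophil-like class, with 56.6 to 72.8 CPM in monocyte-like, 32.8 to 43.0 in dendritic cell-like and 35.4 to 54.5 in NK cell/T cell-like cells. Levels of different members are not ranked against each other, since UMIs at the 3' end are not scaled to length.

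Some members varied together over the 20 combinations of 5 classes and 4 libraries, given as descriptions because the points share libraries and class depths. Ifi203 and Mndal had a Pearson r of 0.995 on log2 levels, Ifi209 and Mndal 0.972 and Ifi203 and Ifi209 0.971. The annotated Mndal gene overlaps that of Ifi203 on the same strand and holds that of Ifi211. A read that fits exons of more than 1 gene cannot be assigned to 1 of them. How far exons are shared there, and their part in these correlations, was not tested. Ifi204 and Ifi207 had 0.838, but Ifi204 had -0.21 with Ifi214, -0.20 with Ifi208 and 0.12 with both Ifi203 and Mndal, and Ifi207 had -0.10 with Ifi208 and 0.02 with Ifi214. Aim2 correlated with the other members at -0.01 to 0.18. Among 11488 genes, the closest in pattern were G3bp2 for both Ifi203 (r of 0.981) and Mndal (0.989), Gnptab for Ifi209 (0.990), Pnp for Ifi207 (0.984), Npc2 for Ifi211 (0.968), Lgals3bp for Ifi213 (0.963) and Soat1 for Ifi204 (0.955). Ifi208 lay closest to Fancf (0.952) and Ifi214 to Kcna3 (0.928). No gene came nearer to Aim2 than H2afj, at 0.850.

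Shared sequence limits how well single members were counted, because reads that fit several genes are dropped by the counting. Of the 31-base stretches in the last 500 bases of the transcripts, 86.4% of those of Ifi211 also occurred in another gene, in Ifi205, and 58.6% of those of Ifi209, in Ifi214. The share was 38.2% for Ifi208, 37.8% for Mndal, 34.7% for Ifi214 and 26.9% for Ifi213. It was 17.9% for Ifi203, 15.3% for Ifi204, 13.9% for Ifi207 and 3.22% for Aim2. Values of Ifi211 and Ifi209 are therefore uncertain.

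All members but Aim2 were called higher in macrophage-like cells with a high interferon score. The score of a cell was its summed level of an interferon list, genes induced by type I interferon such as Ifit1, Isg15, Rsad2 and Mx1, of which 24 were in the files and none was a member. In macrophage-like cells, 9 of 10 members were called higher in the 25% of cells of highest score (high-score cells) than in the 25% of lowest score (low-score cells) in all 4 libraries, against 3.03% of 7385 genes. The exception was Aim2, whose log2 ratios also lay above 0, at 0.89 and 0.71 at 1 dpw and 0.16 and 0.59 at 5 dpw. The members' median log2 ratio was 3.98, 3.82, 2.91 and 3.40 at 1 dpw, as a pair, and then at 5 dpw, and that of all genes lay between -0.18 and -0.03. At 1 dpw Ifi204 was at 207 CPM in low-score and 1726 CPM in high-score Angptl4+/+ macrophage-like cells, and at 124 and 1645 in Angptl4-/- ones. For Ifi208, Angptl4+/+ wounds at 1 dpw gave 1 UMI in low-score and 227 in high-score cells, and the log2 ratio was 7.31 (4.82 to 12.6). In Angptl4-/- wounds it had none in low-score cells and was at least 33.5-fold higher in high-score cells at 1 dpw and at least 31.4-fold higher at 5 dpw, taking 3 UMIs in the low-score cells of a library as the floor. High-score cells were also deeper, with median UMIs in the 4 libraries of 8423 against 4822, 7941 against 3188.5, 9033.5 against 6403.5 and 11416 against 10470, and the comparison was therefore repeated on cells thinned to 1000 UMIs. Of the 9 members 6 were then still called in all 4 libraries and Ifi208, Ifi213 and Ifi214 were not. The share of all genes called in thinned cells is not given beside this count. Thinning leaves fewer UMIs, and a member below the minimum for a test could not be called. In thinned cells the log2 ratios or lower bounds stayed above 0, at 1.22 to 3.22 for Ifi208 and 2.50 to 4.46 for Ifi213. For Ifi214 they were 1.0 to 1.74, with no value given for Angptl4+/+ wounds at 5 dpw. A missing call here need not be a smaller ratio. Ifi204 had log2 ratios of 3.47 and 3.54 at 1 dpw and 2.74 and 3.20 at 5 dpw in thinned cells.

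In neutrophil-like cells, where depth differed less with the score (3107 to 4778 median UMIs in high-score and 3276.5 to 4314 in low-score cells), the same comparison could be made in all 4 libraries for 7 members. Of the 7, the 5 genes Ifi204, Ifi207, Ifi208, Ifi209 and Ifi211, were called higher in all 4 libraries, against 2.68% of 6203 genes. The count was 2, Ifi204 and Ifi207, in cells thinned to 1000 UMIs, without the interferon-led clusters, and with a minimum of 100 UMIs. These counts stand without the share of all genes called in the same setting. With a minimum of 100 UMIs the other 3 members could not be called in all 4 libraries. High-score and low-score Angptl4+/+ cells held 29 and 0 UMIs of Ifi208 and 65 and 3 of Ifi209 at 1 dpw. For Ifi211 they held 81 and 2 at 5 dpw. Thinning leaves fewer UMIs as well, and the number of members still tested in thinned cells is not given. Low-score and high-score Angptl4+/+ cells had Ifi204 at 33.7 and 458 CPM at 1 dpw and at 64.1 and 602 at 5 dpw, and Angptl4-/- cells at 17.4 and 465, then 24.4 and 360. Its log2 ratios were 3.76 and 3.23 in Angptl4+/+ and 4.74 and 3.89 in Angptl4-/- cells. Aim2 was lower in high-score cells in 3 of 4 libraries, with log2 ratios of -0.63, -1.27 and -0.72, and 0.21 in Angptl4+/+ wounds at 5 dpw, where thinned cells gave -0.21. One neutrophil-like cluster was led by interferon genes (Ifit1, Ifit3, Isg15 and Rsad2 among its 10 leading genes) and held 11.1 to 14.4% of the neutrophil-like cells of a library. Ifi204 reached 527 to 933 CPM in it. All 9 tested genes of a guanylate-binding list (Gbp and Irg GTPases induced by interferon), none of which is in the score, were also called higher in neutrophil-like cells of high score in each library.

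**Figure D2:**
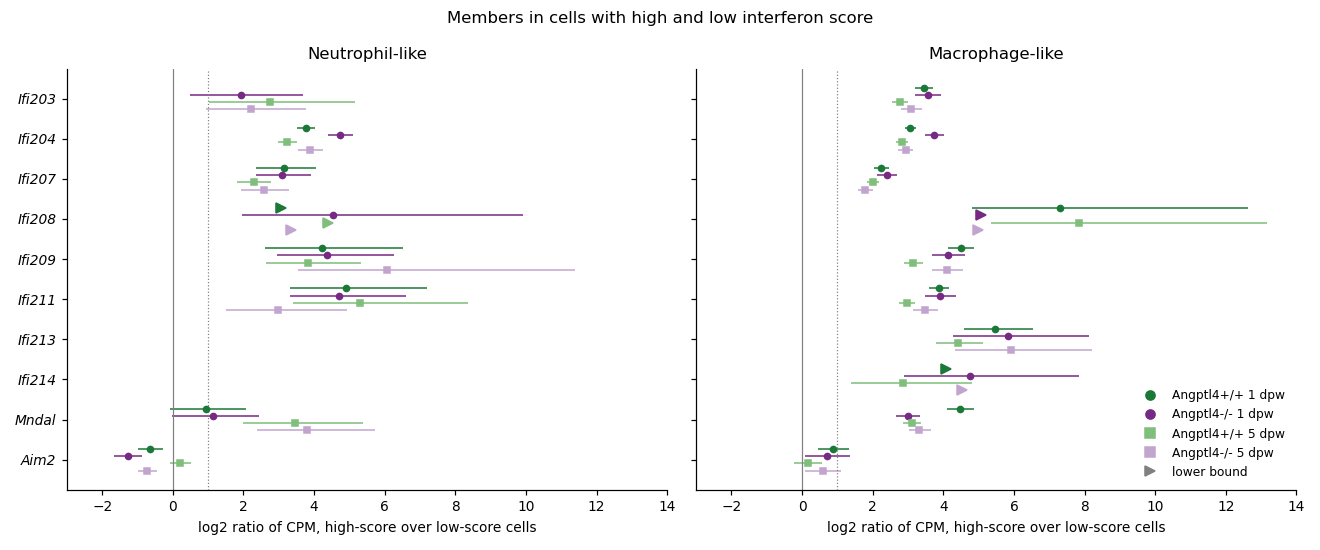
Log2 ratio of CPM between the 25% of cells of highest and the 25% of lowest interferon score for each member with at least 20 UMIs in a library, in neutrophil-like and macrophage-like cells, with 1 point for each library, bars for the 95% interval and arrowheads for lower bounds. Aim2 lies between -1.27 and 0.89, and in macrophage-like cells the other 9 members lie above the dotted line at 1, a ratio of 2-fold.

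Macrophage-like cells formed 2 clusters with different levels of most members. Ccl12, Gas6, Ms4a7, Ifit1bl1 and C1qb were among the 10 leading genes of cluster 6. Cluster 6 had Ifi204 at 1118 and 1048 CPM at 1 dpw and 591 and 634 at 5 dpw. Cluster 3, led by Mmp12 among others, had it at 623, 569, 299.8 and 319. Ifi208 differed more, at 58.2, 54.3, 44.7 and 27.8 CPM in cluster 6 and 13.8, 16.8, 9.06 and 6.25 in cluster 3. Aim2 lay at 34.8 to 47.7 CPM in cluster 6 and 32.8 to 40.0 in cluster 3. The members were left out of the genes used for clustering, but genes that vary with them were not, so the difference is a description. At resolution 1.0, a macrophage-like cluster of 999 cells had Mx1 and Ifit2 of the interferon list among its leading genes. How its cells fell over clusters 3 and 6, and their part in the difference, was not tested. The split also moved with the groups: at 5 dpw cluster 3 held 861 of 1456 Angptl4+/+ and 249 of 590 Angptl4-/- macrophage-like cells.

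**Figure D3:**
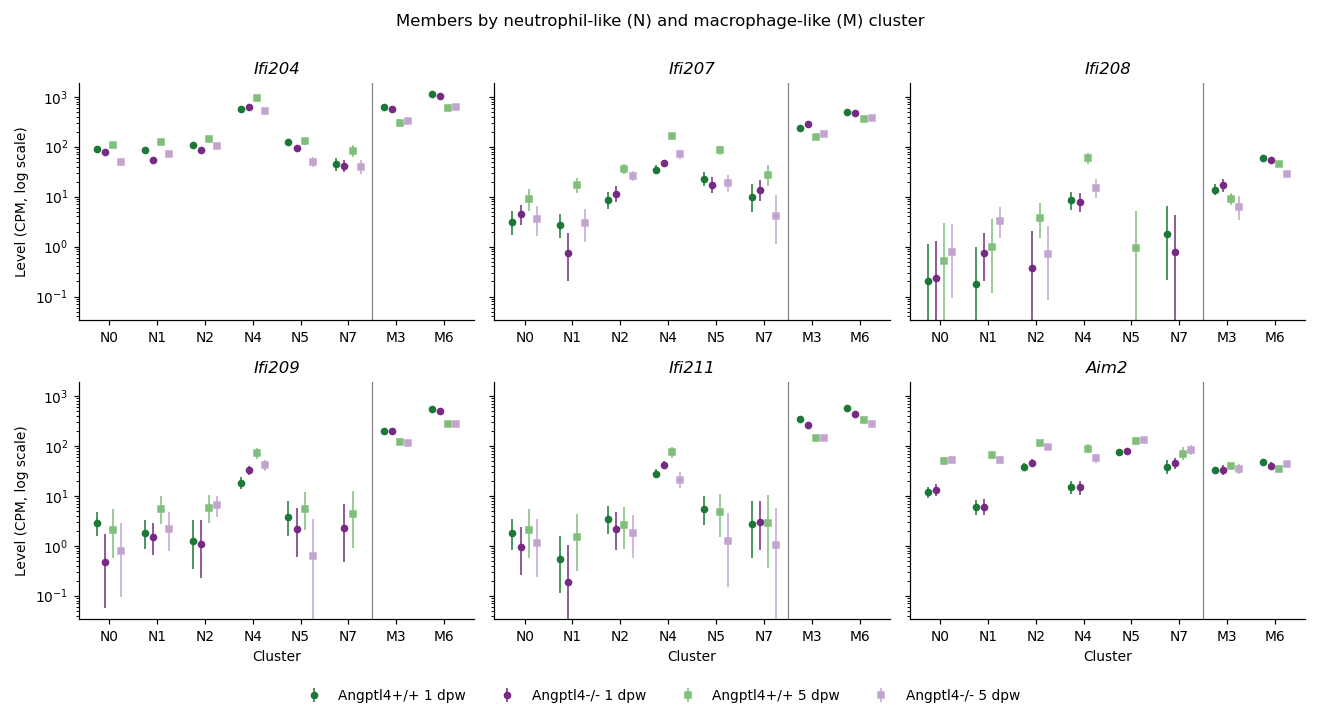
Level of members (CPM, log axis) in each neutrophil-like (N) and macrophage-like (M) cluster, with 1 point for each library and bars for the exact 95% Poisson interval; a level of 0 has no point. N4 is the cluster led by interferon genes, in which Ifi204 lies between 527 and 933 CPM, and M6 lies above M3 for Ifi204 and Ifi208 in every library.

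The question of the genotype comparison was whether loss of Angptl4 moved with the DNA sensor genes on either day. In macrophage-like cells it was Ifi214 that differed. Its level was 9.72 CPM (84 UMIs) and 25.03 CPM (140 UMIs) at 1 dpw, and 4.71 (55 UMIs) and 15.6 (103 UMIs) at 5 dpw. It was higher in Angptl4-/- wounds on both days, with log2 ratios of 1.37 (0.96 to 1.77) and 1.73 (1.24 to 2.23). It was the member called at 1 dpw, 1 of 10 against 2.13% of all genes, and at 5 dpw, 1 of 10 against 3.05%, and the member called in the same direction on both days, 1 of 10 against 0.358%. In cells thinned to 1000 UMIs, fewer than 20 UMIs of Ifi214 were left and it could not be called. The Angptl4-/- level was the higher in both macrophage-like clusters. At 1 dpw it was 7.62 against 13.2 CPM in cluster 3, under 2-fold, and 12.3 against 34.6 in cluster 6. At 5 dpw it was 1.95 against 4.46 and 7.29 against 21.4. The clusters divide the low UMI counts of the class, and no interval or call is given for a ratio within a cluster. In the monocyte-like class Ifi214 had 3 and 10 UMIs at 1 dpw and 5 and 9 at 5 dpw, too few to be tested. NK cell/T cell-like cells had it at 32.2 and 27.1 CPM, then 20.5 and 28.5, with no common direction.

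Ifi213 was lower in Angptl4-/- macrophage-like cells on both days without reaching 2-fold. Its level was 104.9 and 75.4 CPM at 1 dpw and 67.5 and 45.8 at 5 dpw, with log2 ratios of -0.48 (-0.65 to -0.31) and -0.56 (-0.76 to -0.37). Within cluster 3 it was 61.6 against 35.2 and 30.7 against 16.1 CPM, and within cluster 6 157 against 108 and 102 against 61.2. It was below its Angptl4+/+ level in every cluster and day compared. Ifi211 had a log2 ratio of -0.35 at 1 dpw and -0.03 at 5 dpw. The other 7 members had log2 ratios between -0.43 and 0.45. Ifi203 and Mndal, at 0.45 and 0.38 at 5 dpw, were highest of these 7. Both are higher in cluster 6, which held most macrophage-like cells in Angptl4-/- wounds and a minority in Angptl4+/+ wounds at 5 dpw. Ifi208 is higher in cluster 6 too, and its ratio at 5 dpw was the lowest of the 7, at -0.43. The part of the cluster shares in these ratios was not tested.

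**Figure D4:**
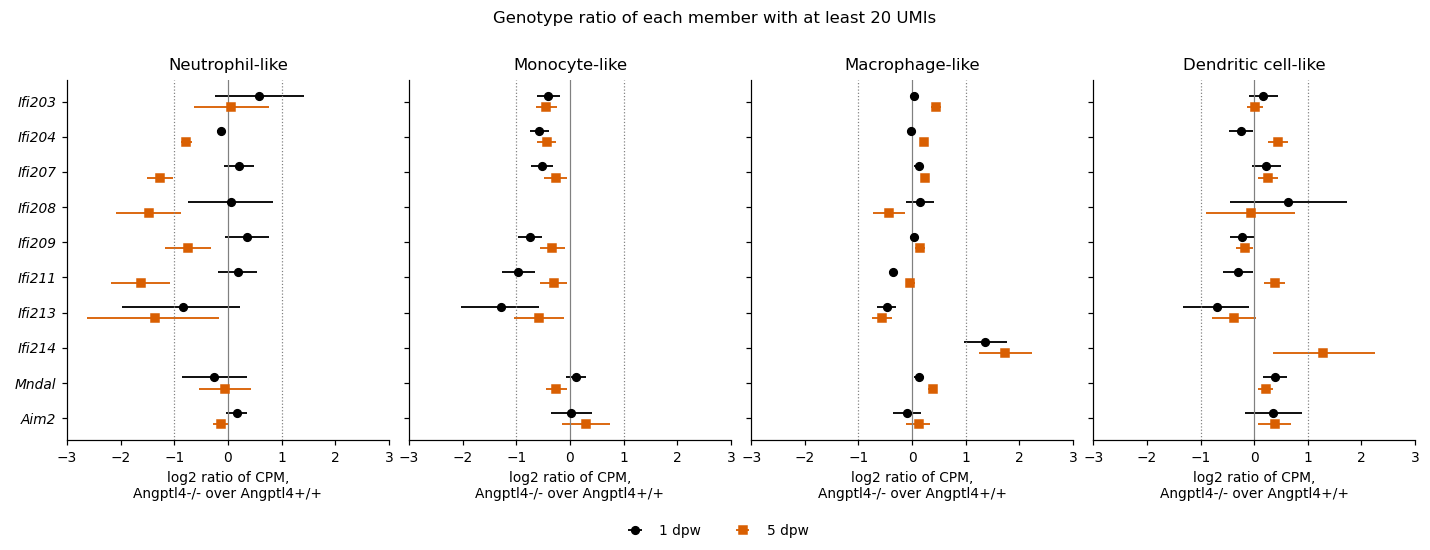
Log2 ratio of CPM in Angptl4-/- over Angptl4+/+ wounds for each member with at least 20 UMIs, in 4 cell classes, with circles for 1 dpw, squares for 5 dpw and bars for the exact 95% interval. Ifi214 lies to the right on both days in macrophage-like cells at 1.37 and 1.73, and Ifi207, Ifi208, Ifi211 and Ifi213 lie to the left in neutrophil-like cells at 5 dpw at -1.27 to -1.62.

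The genomic neighbours gave the setting of these ratios. Within 2 Mb of the family, 1 of 33 other genes tested was called between genotypes in macrophage-like cells at 1 dpw (Cd244), against 2.13% of all genes. At 5 dpw it was 1 of 32 (F11r), against 3.05%. In neutrophil-like cells 4 of 26 were called on each day, against 3.05% and 3.17%, with Dusp23 and Itln1 on both. Monocyte-like cells had 1 of 25 and 3 of 24, against 2.06% and 2.59%. Dendritic cell-like cells had 1 of 30 and 0 of 33, against 3.71% and 3.12%. Ifi202b, which lies beside Ifi203, was at 256 CPM in Angptl4-/- and 0.926 CPM in Angptl4+/+ macrophage-like cells at 1 dpw, and at 148 CPM and 0 at 5 dpw. Ifi205 and Ifi206 had log2 ratios between -0.27 and 0.01.

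**Figure D5:**
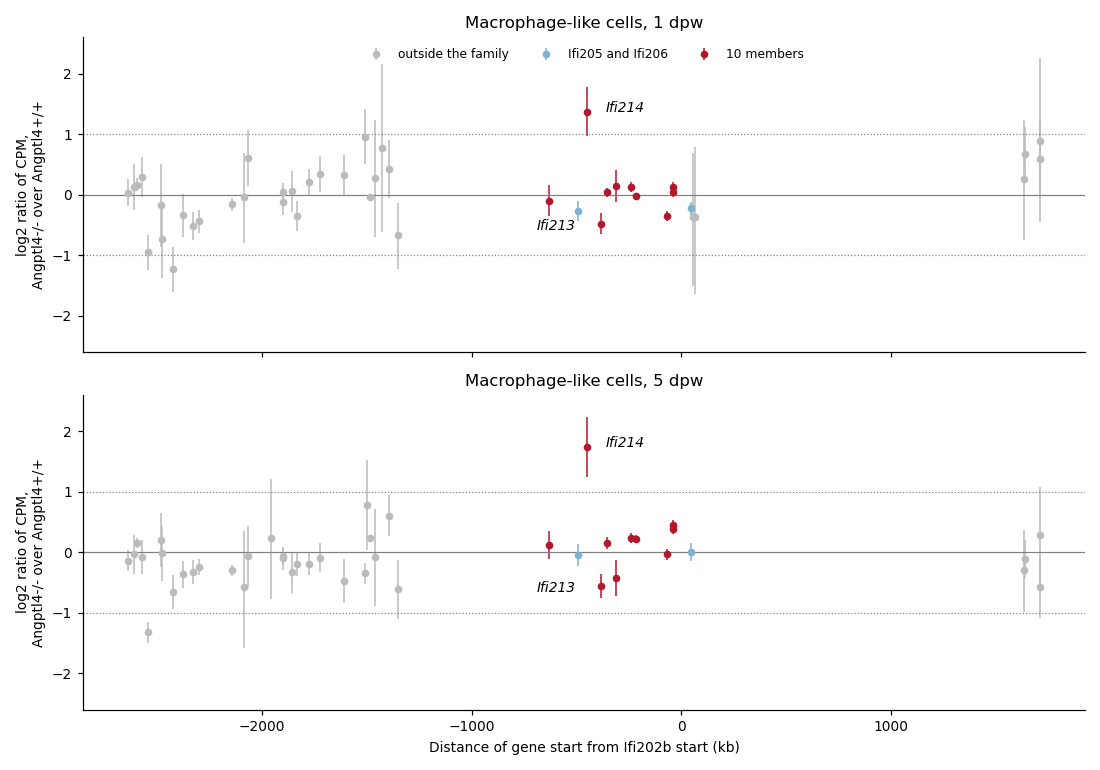
Log2 ratio of CPM in Angptl4-/- over Angptl4+/+ macrophage-like cells at 1 and 5 dpw for the family and the genes around it, plotted by distance in kb from the start of Ifi202b. Ifi202b itself is not drawn. Ifi214 is the member above the dotted line at 1 (2-fold), at 1.37 and 1.73, and Ifi213 lies at -0.48 and -0.56.

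In neutrophil-like cells no member was called between genotypes at 1 dpw, 0 of 9 against 3.05% of all genes, and 4 of 9 were called lower in Angptl4-/- wounds at 5 dpw, against 3.17%. Ifi207 was at 11.04 and 12.7 CPM at 1 dpw, and at 45.7 (41.3 to 50.4) and 19.0 (16.6 to 21.6) at 5 dpw, and its log2 ratio was then -1.27 (-1.51 to -1.03). Ifi208 was at 1.53 and 1.58 CPM, then 8.11 and 2.94, and its log2 ratio at 5 dpw was -1.47 (-2.09 to -0.87). Ifi211 was at 6.21 and 7.04 CPM, then 10.8 and 3.51, with -1.62 (-2.18 to -1.08) as its log2 ratio at 5 dpw. For these 3 the levels over the whole class lay close together at 1 dpw and their intervals did not overlap at 5 dpw. Ifi213 had 18 and 10 UMIs at 5 dpw, for a log2 ratio of -1.36 (-2.63 to -0.16). Ifi204 and Ifi209 were also lower, at -0.78 and -0.74, while Aim2, Mndal and Ifi203 stood at -0.14, -0.05 and 0.06. No member was called in the same direction on both days, 0 of 9 against 0.662% of all genes.

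The 5 dpw difference lay both within the interferon-led cluster and outside it, and its place differed between members. That cluster held 11.1 and 11.7% of neutrophil-like cells at 5 dpw. Within it, Ifi208 was at 59.1 and 15.0 CPM, Ifi211 at 74.1 and 20.8, Ifi207 at 162 and 70.3 and Ifi204 at 933 and 527. In the other clusters Ifi207 kept a log2 ratio of -1.38 and Ifi211 of -1.28, and that of Ifi208 was -0.25 (-1.53 to 1.05). At 1 dpw the near-level Ifi211 of the whole class held opposite parts. Its log2 ratio was 0.56 (0.15 to 0.99) within the interferon-led cluster and -1.17 (-2.15 to -0.27; 36 and 15 UMIs) in the other clusters. Outside that cluster Ifi211 was thus called lower on both days, at 5 dpw on 19 and 11 UMIs with an interval of -2.498 to -0.135. The share of all genes called outside that cluster is not given. Over the whole neutrophil-like class, the interferon list had a median log2 ratio between genotypes of 0.18 at 5 dpw, beside -0.08 over all genes. Of its 23 genes tested 1 (Isg15) was called higher and 0 lower. The list was not compared between genotypes within the interferon-led cluster. The summed level of the 6 macrophage genes in neutrophil-like cells was 182 and 131 CPM at 5 dpw, and its part in the member ratios was not tested.

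Few members were called between genotypes in monocyte-like and dendritic cell-like cells. In monocyte-like cells 1 of 8 members was called at 1 dpw against 2.06% of all genes, 0 of 8 at 5 dpw against 2.59%, and 0 of 8 in the same direction on both days against 0.194%. The member called was Ifi213, at 30.7 and 12.6 CPM (70 and 23 UMIs), a log2 ratio of -1.28, and its ratio at 5 dpw was -0.58. Whether called or not, the monocyte-like members lay mostly on the lower side in Angptl4-/- wounds, with 6 of 8 below 0 at 1 dpw and a median of -0.55 beside -0.02 over all genes, and 7 of 8 at 5 dpw and -0.32 beside 0.01. In dendritic cell-like cells 0 of 9 members were called at 1 dpw against 3.71%, 1 of 10 at 5 dpw against 3.12%, and 0 of 9 in the same direction on both days against 0.304%. That member was Ifi214, with 16 and 29 UMIs and a log2 ratio of 1.28 (0.35 to 2.26).

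Between the days, neutrophil-like cells changed in most genes, and the members are read against that shift. The median log2 ratio of 5 over 1 dpw over all genes was 0.77 in Angptl4+/+ and 0.80 in Angptl4-/- neutrophil-like cells, and scaling by TMM factors lowered every ratio by 0.75 in both. In Angptl4+/+ wounds 6 of 9 members were called, against 39.5% of all genes, all higher at 5 dpw: Ifi203, Ifi207, Ifi208, Ifi209, Mndal and Aim2. In Angptl4-/- wounds 4 of 9 were called, against 42.2%: Ifi203, Mndal and Aim2 higher and Ifi211 lower. Aim2 had log2 ratios of 1.91 and 1.61, and 1.16 and 0.85 after TMM scaling. Ifi207 and Ifi208 had ratios of 2.05 and 2.41 in Angptl4+/+ wounds, and of 0.58 and 0.89 in Angptl4-/- wounds, where TMM scaling took Ifi207 to -0.17 and Ifi208 to 0.14. Ifi204 had ratios of 0.36 and -0.28, and both were below 0 after TMM scaling, at -0.39 and -1.03. The summed level of the 6 macrophage genes in these cells also moved with the day, from 19.7 to 182 CPM in Angptl4+/+ and from 13.8 to 131 CPM in Angptl4-/- wounds, and its part in the ratios of the low members was not tested.

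Macrophage-like cells went the other way. All 10 members were lower at 5 than at 1 dpw in Angptl4+/+ wounds, with a median log2 ratio of -0.72 beside 0.19 over all genes, and 9 of 10 in Angptl4-/- wounds, with -0.63 beside 0.11. At 2-fold, 1 of 10 was called in Angptl4+/+ wounds (Ifi214) against 14.5% of all genes, and 0 of 10 in Angptl4-/- wounds against 10.6%. The interferon list was lower too, with 10 and 9 of 24 genes called. The summed level of 8 neutrophil markers in macrophage-like cells fell between the days as well, from 11480 to 2057 CPM and from 10490 to 2143 CPM, and its part in these ratios was not tested.

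In monocyte-like cells every member tested was higher at 5 dpw, with median log2 ratios of 0.47 in Angptl4+/+ and 0.59 in Angptl4-/- wounds beside -0.06 and -0.03 over all genes. Ifi213 was called in Angptl4+/+ wounds, 1 of 9 against 6.73%, and Ifi211 and Ifi213 in Angptl4-/- wounds, 2 of 8 against 5.7%. Ifi213 was at 30.7 and 74.4 CPM in Angptl4+/+ and at 12.6 and 49.8 CPM in Angptl4-/- wounds at 1 and 5 dpw. The interferon list was higher at 5 dpw with 10 of 24 and 9 of 23 genes called. In dendritic cell-like cells 1 of 10 members was called in each genotype, Ifi204 lower at -1.40 in Angptl4+/+ wounds against 7.59% of all genes and Ifi208 lower at -1.12 in Angptl4-/- wounds against 6.08%. The summed level of the 8 neutrophil markers in dendritic cell-like cells fell between the days, from 4471 to 566.5 CPM and from 3146 to 740 CPM, and its part in these ratios was not tested.

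Few genes that act with the family were called between genotypes. Of 14 genes of cytosolic DNA and RNA sensing (among them Tmem173, which encodes STING, and Mb21d1, which encodes cGAS), none of the 12 or 13 tested was called in either direction in neutrophil-like, monocyte-like or macrophage-like cells on either day. Of the 14 inflammasome genes, Nlrc4 was called lower in Angptl4-/- neutrophil-like cells at 1 dpw, on 21 and 8 UMIs. No other of that list was called in these 3 classes. In the interferon list Isg15 was called higher in Angptl4-/- neutrophil-like and macrophage-like cells on both days. In monocyte-like cells calls went the other way, with Gbp5 and Irgm1 of the guanylate-binding list lower in Angptl4-/- wounds at 1 dpw and Ifit2 and Ifit3 of the interferon list lower at 5 dpw. In dendritic cell-like cells Ifit3b and Ifit3 were called higher at 1 dpw, and Rsad2 and Cmpk2 at 5 dpw. Between the days in neutrophil-like cells Tmem173, Irf3 and Ddx41 were called higher in both genotypes, 3 of 12 sensing genes tested in each. Nlrp1b and Nek7 were called higher as well, 2 of 14 and 2 of 13 inflammasome genes. Over all genes 39.5% and 42.2% were called. The sensing list had median log2 ratios of 0.095 and 0.077, and the inflammasome list 0.245 and 0.238. Over all genes the median was 0.77 and 0.80.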

How the data were processed

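Live CD45+ wound leukocytes were profiled by 10x Genomics 3' v3 chemistry. The authors aligned the reads and deposited UMI counts per gene and cell from Cell Ranger 3.1.0 (mm10) and analysed them with Seurat 3.0. From these counts, cells with at least 200 genes and at most 10% mitochondrial UMIs were kept. Libraries were integrated by anchors in Seurat 5.3.0 (R 4.3.3) with 2000 variable genes (the members and the genes the study named left out), 30 dimensions and resolution 0.5, and clusters were named from marker lists, so names may differ from the study's. UMIs were summed by class and library, with 1 library in each group; hence no test was made. Levels carry exact Poisson intervals and ratios exact conditional binomial 95% intervals (scipy 1.17.1); the method was tested on simulated data. A ratio needed 20 UMIs in both sums together and was called at 2-fold with an interval leaving out 0. Doublets were kept; the automatic Scrublet threshold (scanpy 1.11.5) did not work, so the highest scores at 0.8% per 1000 cells were left out as an alternative. Scaling by edgeR 4.0.16 and DESeq2 1.42.0 was another. All 10 members are reported, and other genes were named as the 3 of highest correlation with a member, as called members of the pathway lists or as neighbours on the chromosome. Members and lists were chosen with earlier results of these data known. Sequence windows came from RefSeq tables of GRCm38.p6, and gene positions from GENCODE annotation of the same build.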

Additional observations from a re-analysis of the deposited data

Results flagged for a closer look

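With 1 library in each group, a member is given here where its ratio had opposite signs in 2 groups (the 2 days or the 2 genotypes) and both 95% counting intervals left out 0; the difference between the groups was not tested. Between 5 and 1 dpw in neutrophil-like cells, Ifi204 had log2 ratios of 0.362 in Angptl4+/+ and -0.281 in Angptl4-/- wounds, and Ifi211 of 0.797 and -1.006. The median over all genes was 0.77 and 0.80 in these comparisons, so that Ifi204 was below it in both genotypes. After TMM scaling the ratio of Ifi211 was 0.048 in Angptl4+/+ and -1.758 in Angptl4-/- wounds. Of the 31-base stretches in the last 500 bases of Ifi211, 86.4% are shared with another gene. Between genotypes in dendritic cell-like cells, Ifi204 had log2 ratios of -0.245 at 1 dpw and 0.447 at 5 dpw, and Ifi211 of -0.302 and 0.379. No member had such opposite signs between genotypes or days within macrophage-like or monocyte-like cells, which were searched in the same way. In macrophage-like over neutrophil-like cells, the log2 ratio of Aim2 went from 0.835 to -1.157 between 1 and 5 dpw in Angptl4+/+ wounds and from 0.576 to -0.900 in Angptl4-/- wounds.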

How the results depend on the processing

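Of 1911 recomputed values, 1605 moved by less than their counting interval or, for counts, by less than 1.5 times, 302 moved further and 4, all called ratios, changed sign. Another 55 ratios changed sign that had not been called, among them, between days in neutrophil-like cells under TMM factors, Ifi204 in Angptl4+/+ wounds (-0.39) and Ifi207, Ifi209 and Ifi213 in Angptl4-/- wounds (-0.17, -0.46 and -0.44). The 4 sign changes of called ratios came when the interferon-led clusters were left out: Ifi211 between days in Angptl4-/- neutrophil-like cells (0.088), and, by interferon score in neutrophil-like cells, Ifi203 in Angptl4+/+ ones at 5 dpw (-0.060), Ifi203 in Angptl4-/- ones at 1 dpw (-0.628) and Ifi211 in Angptl4-/- ones at 5 dpw (-0.144). This setting left out only neutrophil-like cells, so its values within macrophage-like, monocyte-like and dendritic cell-like cells could not move. They are counted among the 1605. Without the interferon-led clusters the count of members called in neutrophil-like cells was 1 (Ifi211) between genotypes at 1 dpw, 2 at 5 dpw and 1 (Ifi211) on both days. It was 3 between days in Angptl4+/+ wounds and 2 by interferon score. This count and those below are given without the share of all genes called in the same setting. They therefore do not show whether members were called more often than other genes. Thinning and the minimum of 100 UMIs can also take members of few UMIs out of the test. A lower count in these settings need not be a smaller ratio. With cells thinned to 1000 UMIs the counts between genotypes were 1 for monocyte-like cells at 5 dpw, 0 for macrophage-like cells at 1 dpw, at 5 dpw and on both days, and 1 for dendritic cell-like cells at 1 dpw. Between days they were 2 for Angptl4-/- neutrophil-like, 0 for Angptl4-/- monocyte-like, 0 and 1 for Angptl4+/+ and Angptl4-/- macrophage-like and 2 and 0 for dendritic cell-like cells, and 2 by interferon score in neutrophil-like cells. TMM factors and size factors each gave, between days, 3 and 2 in Angptl4+/+ and Angptl4-/- neutrophil-like cells, 2 in Angptl4+/+ monocyte-like and 4 in Angptl4+/+ macrophage-like cells. Without integration the counts were 2 between genotypes in monocyte-like cells at 1 dpw, and between days 3 and 1 in macrophage-like cells and 0 in Angptl4-/- dendritic cell-like cells. At resolution 1.0 they were, between days, 2 in Angptl4-/- neutrophil-like cells, 2 and 1 in macrophage-like cells and 0 in Angptl4-/- dendritic cell-like cells. Leaving out doublets gave 2 between genotypes in monocyte-like cells at 1 dpw, where a minimum of 1 UMI gave 3 and one of 100 UMIs gave 0. A minimum of 100 UMIs also gave 0 between genotypes in dendritic cell-like cells at 5 dpw, 1 and 0 between days in Angptl4-/- monocyte-like and dendritic cell-like cells and 2 by interferon score in neutrophil-like cells. The stricter filter of at least 500 genes and at most 5% mitochondrial UMIs moved none of its 259 values past these limits. The log2 ratio of Ifi214 between genotypes in macrophage-like cells ranged from 0.73 to 1.38 at 1 dpw and from 1.62 to 3.28 at 5 dpw over 8 alternatives each, the ends at 0.73 and 3.28 coming from thinned cells. No paired analysis was possible because each group held 1 library, and for the same reason none could be left out. Counts below about 20 UMIs, as for Ifi213 and Ifi214 in neutrophil-like cells, limit what these libraries can show; the causes of the movements were not tested beyond what each setting changes.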
